A study of Mus musculus with 2 samples.

Results

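This report concerns *Pof1b* and 9 genes of desmosomes and epithelial adherens junctions (*Cdh1*, *Dsc2*, *Dsc3*, *Dsg2*, *Dsp*, *Jup*, *Pkp1*, *Pkp2* and *Pkp3*) in ureters of newborn mice treated with the SHH pathway inhibitor cyclopamine. The 10 genes are 10 of 30011 named on the array and were covered by 15 of its 39429 probes. They were picked by name, with *Pof1b* taken because of the size of its ratio in this same comparison, so the ratios of all 10 genes are given as a description and without a test. Wildtype NMRI ureters of postnatal day 0 were explanted and kept for 18 h either in 10 µM cyclopamine or in control medium. The labels give DMF as the solvent of the control, whereas the study's methods name ethanol for cyclopamine, so the control solvent is uncertain. RNA of pooled ureters was compared on 2 two-colour arrays. Replicate 1 held a cyclopamine and a control pool of females, and replicate 2 held the corresponding male pools with the dyes swapped. Sex, dye orientation and array therefore cannot be told apart. The pools contained whole ureters, so epithelium, smooth muscle and connective tissue were measured together, and fewer cells of a type cannot be told apart from less RNA per cell. The labels name the treated channels after the WNT inhibitor IWP-2 in a single field and after cyclopamine in all others. The SHH target genes *Gli1*, *Ptch1*, *Hhip*, *Foxf1* and *Foxl1* fell on both arrays (5 of 6 listed targets called lower by limma at an adjusted p limit of 0.05), with log2 ratios of -1.83 and -2.09 for *Gli1*.

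Desmosomes are buttons of cell adhesion that tie the keratin filaments of neighbouring epithelial cells together. Their adhesive part consists of the desmosomal cadherins, the desmogleins and desmocollins, whose tails bind plakoglobin (*Jup*) and plakophilins (*Pkp1* to *Pkp3*). Desmoplakin (*Dsp*) links this plaque to keratin. E-cadherin (*Cdh1*) is the cadherin of the epithelial adherens junction, in which plakoglobin can also take part. POF1B is an actin-binding protein of epithelial junctions whose human gene was named after premature ovarian failure. In the ureter such junctions belong to the urothelium, the stretchable and water-tight lining of the tube, and the urothelium is also the source of SHH for the surrounding mesenchyme.

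RefSeq promoter sequences (build GRCm38.p6) were at hand for *Pof1b*, *Dsp* and *Jup*. They are shown because no other member had a promoter sequence at hand. These genes happen to carry the largest, one of the most uneven and one of the smaller ratios of the group. The E-box searched for was CAGGTG, read on the other strand as CACCTG. It is the site through which repressors such as SNAI1 are known to act on *Cdh1*. The 250 bases before each start are printed 5′ to 3′ along the gene, and capitals mark an E-box.
Pof1b, chrX:112698652-112698901, minus strand: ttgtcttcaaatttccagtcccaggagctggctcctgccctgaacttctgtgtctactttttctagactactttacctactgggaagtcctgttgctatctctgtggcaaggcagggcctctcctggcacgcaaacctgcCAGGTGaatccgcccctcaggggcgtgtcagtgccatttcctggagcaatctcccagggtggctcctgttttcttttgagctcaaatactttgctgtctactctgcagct
Dsp, chr13:38151044-38151293, plus strand: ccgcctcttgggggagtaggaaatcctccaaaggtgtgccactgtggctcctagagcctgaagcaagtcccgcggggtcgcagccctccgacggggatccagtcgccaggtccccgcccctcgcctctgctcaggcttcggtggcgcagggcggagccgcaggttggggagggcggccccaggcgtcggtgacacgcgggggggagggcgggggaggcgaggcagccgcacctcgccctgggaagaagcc
Jup, chr11:100397791-100398040, minus strand: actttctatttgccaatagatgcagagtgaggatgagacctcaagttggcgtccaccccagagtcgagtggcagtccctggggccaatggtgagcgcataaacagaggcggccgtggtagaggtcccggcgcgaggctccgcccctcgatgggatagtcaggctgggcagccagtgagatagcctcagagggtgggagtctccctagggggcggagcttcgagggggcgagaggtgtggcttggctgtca

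The *Pof1b* promoter held 1 E-box, whose first base lay 110 bases before the start. *Dsp* held none before its start and 1 that began 3 bases after the start base, and *Jup* held none in the whole window of 300 bases (250 before and 50 after the start). Of 32851 promoters of that length in the table, 20.2% held this E-box. The grainyhead motif AACNGGTT (both strands, in 2.09% of promoters) and the GLI motif GACCACCCA (both strands, in 0.253% of promoters) were found in none of the 3 windows. These are matches of letters only, and none of them shows that a factor binds there.

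The members are described from *Pof1b* to the cadherins, the plaque proteins and E-cadherin. Intensities are the background-subtracted and dye-balanced signals of a probe in arbitrary units, and they are compared between channels of the same array only, because replicate 1 was brighter throughout (upper quartile of control signals 3337, against 628 for replicate 2). Errors are SDs over 2 arrays. In the array annotation (mm9, without exons or UTRs) the desmosomal cadherin genes *Dsg2*, *Dsc2* and *Dsc3* share chromosome 18, while *Cdh1* lies on chromosome 8, *Dsp* on 13, *Jup* on 11, *Pkp1* on 1, *Pkp2* on 16, *Pkp3* on 7 and *Pof1b* on the X chromosome. The spots of a probe, up to 4 per array, agreed closely for the 9 members measured in all 4 channels, with an SD of the log2 ratio between 0.004 and 0.066.

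The *Pof1b* probe reached 1858 (control) and 3751 (cyclopamine) units on replicate 1, and 489 and 960 units on replicate 2. The cyclopamine pool was about 2-fold brighter on each array, and the log2 ratio of cyclopamine over control was 1.01 and 0.97 (mean 0.99 ± 0.03, SD, n = 2). The brightest probe lies at chrX:109756588-109756647 on the minus strand (mm9, as annotated by the array). The second probe, at chrX:109752017-109752038, gave 433 and 865 on replicate 1 and 122 and 220 on replicate 2. Both probes thus showed nearly the same ratio, the second with 1.00 and 0.86. Of 19405 genes tested, 52 had a larger mean log2 ratio than *Pof1b* (0.268%), which describes the choice of the gene and is not a result. The 5 genes measured in all 4 channels whose pair of ratios lay nearest to that of *Pof1b* (Euclidean distance over the 2 arrays, control intensity over 100 on both) were *Aox1* (1.01 and 0.88), which encodes an aldehyde oxidase, the interferon-induced genes *Gbp3* and *Ifit1*, *Dio2*, the type 2 deiodinase that activates thyroid hormone, and the zinc finger gene *Zfp982*. Their distances ranged from 0.091 to 0.293 on the log2 scale.

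Among the desmosomal cadherins, *Dsg2*, the most widely expressed desmoglein, had intensities of 2279 and 4568 (control and cyclopamine) on replicate 1, and of 1044 and 1301 on replicate 2. Cyclopamine pools were the brighter on both arrays, but by unequal amounts, with log2 ratios of 1.00 and 0.32 (mean 0.66 ± 0.48, SD, n = 2). The second *Dsg2* probe gave 0.34 and 0.36, so the probes differed on replicate 1 and not on replicate 2. The third probe was not well above background in any channel. *Dsc2*, the most widely expressed desmocollin, had 3494 and 4430 on replicate 1 and 835 and 1262 on replicate 2. Its log2 ratio was 0.34 and 0.60 (mean 0.47 ± 0.18, SD, n = 2), larger in the male pools.

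*Dsc3*, a desmocollin of stratified epithelia, was dim in all pools. Its brightest probe gave 14.65 and 22.25 on replicate 1 and 4.71 and 8.57 on replicate 2. In the control, 25% of spots were well above background on each array, against 100% in cyclopamine, so the control level is only a bound. On the processed signals *Dsc3* was at least 1.41-fold higher in cyclopamine (the bound compares its 4 Aquantile-normalised channels with the dimmest signals that still cleared background). The gene entered the tested set through its cyclopamine channels alone, so a difference in that direction was built in. The measured log2 ratios were 0.60 and 0.86, and the second probe, dimmer still, gave -0.12 and 0.94. The mean log2 ratio of *Dsc3* was 0.18 with normexp background correction and an offset of 50 and 0.24 from the deposited series table, both under that bound, so its size depends on the processing.

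**Figure D1:**
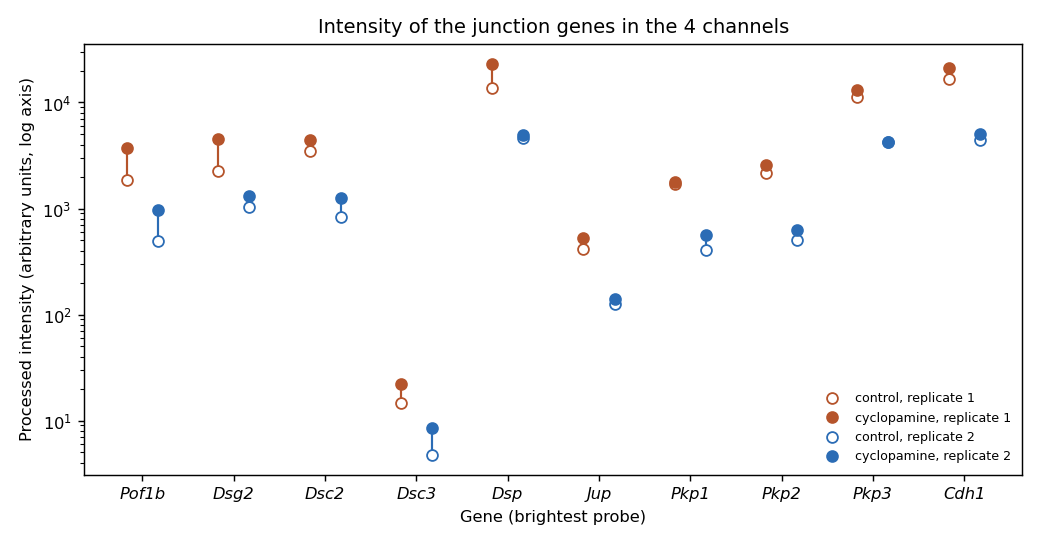
Processed intensity (log axis) of the brightest probe of each gene, with open circles for control and filled circles for cyclopamine pools, replicate 1 in brown and replicate 2 in blue. Lines join the channels of an array. *Pof1b* shows the same distance on both arrays, *Dsp* and *Dsg2* a longer one on replicate 1, and *Dsc3* lies near background. Heights are not comparable between genes or arrays.

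Of the plaque proteins, *Dsp* had 13770 and 23280 on replicate 1 and 4583 and 4882 on replicate 2. The cyclopamine pool was clearly brighter in the female pools and only slightly so in the male pools, with log2 ratios of 0.76 and 0.09 (mean 0.42 ± 0.47, SD, n = 2). The second *Dsp* probe kept this order with 0.98 and 0.33. *Jup* (plakoglobin) had 414 and 524 on replicate 1 and 126 and 140 on replicate 2, which are log2 ratios of 0.34 and 0.15 (mean 0.24 ± 0.13, SD, n = 2).

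The 3 plakophilins are armadillo proteins that cluster the desmosomal cadherins. *Pkp1*, the plakophilin of upper layers in stratified epithelia, gave 1685 and 1764 on replicate 1 and 407 and 565 on replicate 2 (log2 ratios 0.07 and 0.47), so that the difference was carried by the male pools. *Pkp2*, found in simple epithelia and heart, gave 2150 and 2575 on replicate 1 and 500.2 and 620 on replicate 2, and was alike on both arrays with log2 ratios of 0.26 and 0.31. *Pkp3*, present in most desmosomes, gave 11370 and 13090 on replicate 1 and 4211 and 4230 on replicate 2, with ratios of 0.20 and 0.01, so that the male pools hardly differed. The mean ratio was 0.27 ± 0.29 for *Pkp1*, 0.28 ± 0.04 for *Pkp2* and 0.10 ± 0.14 for *Pkp3* (SD, n = 2), and for *Pkp1* and *Pkp3* the SD exceeded the mean.

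*Cdh1* had 16690 and 21120 on replicate 1 and 4391 and 5072 on replicate 2. Its log2 ratios of 0.34 and 0.21 (mean 0.27 ± 0.09, SD, n = 2) were close to those of *Jup* and *Pkp2*, and well below those of *Pof1b*.

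**Figure D2:**
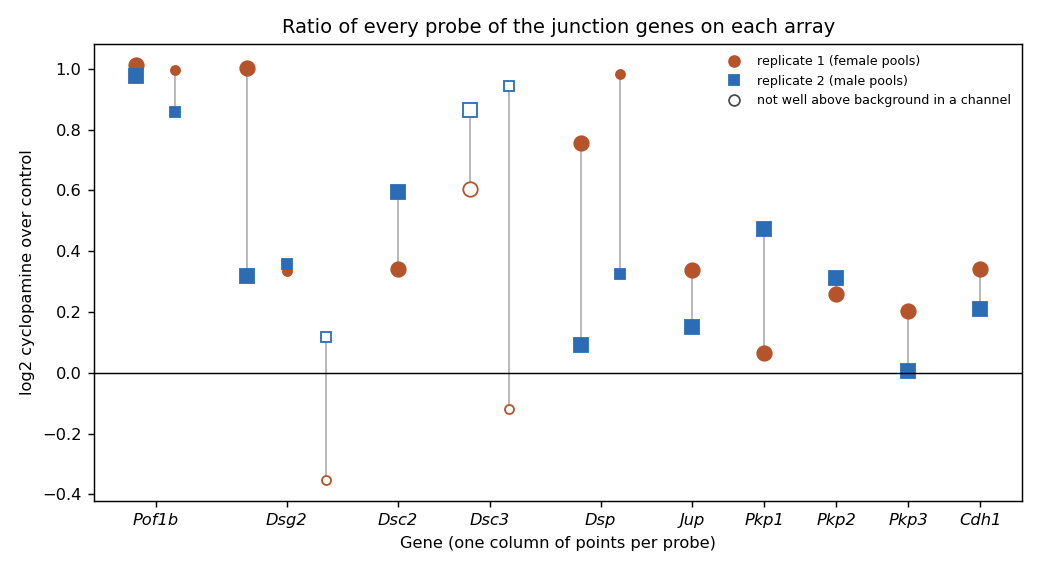
Log2 ratio of cyclopamine over control for every probe of the 10 genes, with circles for replicate 1 (female pools) and squares for replicate 2 (male pools), large for the brightest probe and open where a channel was not well above background. All brightest probes lie above 0 on both arrays, and the symbols of *Dsg2*, *Dsp* and *Pkp1* lie far apart.

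All 10 genes were higher in cyclopamine on both arrays, with a median log2 ratio of 0.341 on replicate 1, 0.314 on replicate 2 and 0.355 for the mean of both. Over all genes tested, 28.6% were higher on both arrays and the median was -0.01. As the ratios took part in the choice of the genes, nothing is read from this count. Of the 9 members measured in all 4 channels, which leaves out *Dsc3*, 3 were at least 1.5-fold higher on replicate 1 (*Pof1b*, *Dsg2*, *Dsp*), as were 8.45% of the 18921 genes so measured. On replicate 2 this held for 2 members (*Pof1b*, *Dsc2*) and for 1.63% of those genes. Only *Pof1b* was at least 1.5-fold higher on both arrays with a control intensity over 100, as were 0.149% of all genes tested. After Aquantile normalisation, which puts the 4 channels on a common scale, both cyclopamine pools lay above both control pools for 3 members (*Pof1b*, *Dsc2* and *Dsp*), and for 15.5% of all genes tested, again without a test. The gap was narrow for *Dsc2*, from 10.9 in the higher control to 10.91 in the lower cyclopamine pool (log2 values). It was narrow for *Dsp* too, from 13.3 to 13.35. For *Cdh1* the groups touched, with log2 values of 12.88 and 13.23 in control and 13.22 and 13.44 in cyclopamine.

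The members fell into no common pattern between arrays, with 6 having the larger ratio on replicate 1 and 4 (*Dsc2*, *Dsc3*, *Pkp1*, *Pkp2*) on replicate 2. On replicate 1 the ratios of the 22482 tested probes with a known gene length moved with genomic gene length (Spearman's rho 0.44). On replicate 2 they hardly did (rho 0.04). Probes are not independent replicates, and several can belong to the same gene. With this trend removed from each array the median of the members was 0.277 and *Pkp1* turned to -0.07 on replicate 1, which left 9 members higher on both arrays.

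**Figure D3:**
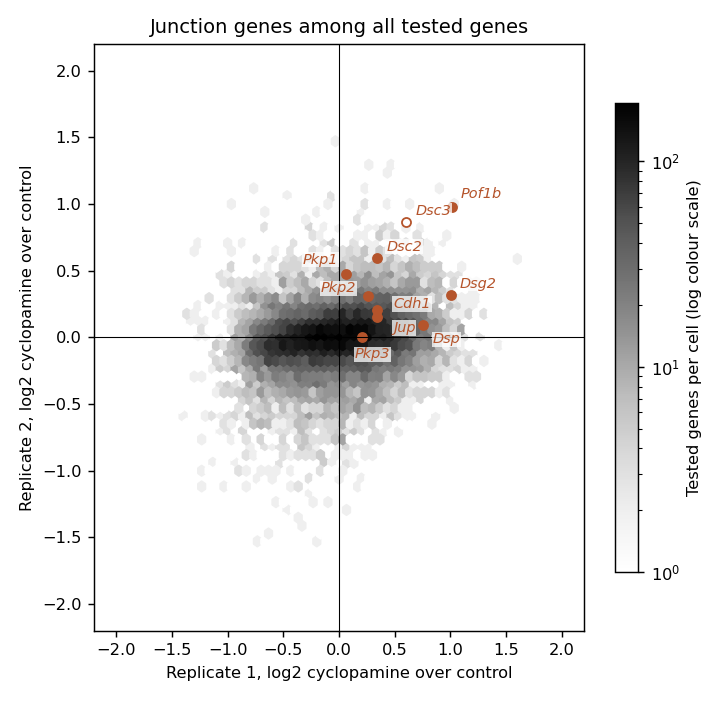
Log2 ratio of cyclopamine over control on replicate 1 (horizontal axis) against replicate 2 (vertical axis), with tested genes as grey cells whose shade gives their number on a log scale and the 10 genes as brown circles (*Dsc3* open). Genes beyond 2 on either axis are not drawn. All 10 lie in the upper right quadrant, *Pof1b* farthest out and *Pkp3* on its lower edge.

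Other genes of cell junctions, not all of them confined to epithelium, show the setting of these values. A list of 69 genes of desmosomes, adherens, tight and gap junctions and hemidesmosomes was compared, of which 63 passed the filter. None was called by limma (adjusted p limit 0.05), against 0.438% of all genes called higher and 0.861% called lower. At an unadjusted limma p limit of 0.05, 8 of the 63 were higher and 1 lower, against 820 higher and 932 lower of all 19405 genes tested. None of the 63 passed the 1.5-fold limit on both arrays. The limma variance rests on 1 residual degree of freedom per probe and mostly on its prior, so a missed call does not show that a gene was unaffected. Of the 63 genes, 38 (60.3%) were higher on both arrays and 3 lower, with a median log2 ratio of 0.22 (0.22 on replicate 1 and 0.17 on replicate 2).

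Of 6 further desmosome genes that passed, 5 were higher on both arrays (median log2 ratio 0.29). *Dsg3*, a desmoglein of basal cells in stratified epithelia, had ratios of 0.37 and 0.73 (limma adjusted p = 0.355), and *Perp*, a tetraspan protein of desmosomes, 0.43 and 0.34 (limma adjusted p = 0.628). *Dsc1*, *Dsg1a*, *Dsg1b*, *Dsg1c* and *Dsg4*, most of them genes of keratinising epidermis or hair, did not pass the filter. The hemidesmosome genes, which anchor basal cells to the basement membrane, had a median of 0.40 for the mean of both arrays, but of 0.67 on replicate 1 and 0.05 on replicate 2. Among them *Col17a1* had the largest mean of all 63 genes, with 0.54 and 0.68 (limma adjusted p = 0.253). *Dst* (0.93 and 0.10) and *Itga6* (0.85 and 0.03) were high on replicate 1, the array with the gene length trend.

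Of 14 adherens junction genes 8 were higher on both arrays and 1 lower (median 0.21, but 0.37 on replicate 1 and 0.10 on replicate 2). *Ctnnb1*, which encodes beta-catenin, the partner of E-cadherin, had 0.78 and 0.23, *Afdn* 0.89 and 0.17 and *Lmo7* 0.52 and 0.38 (limma adjusted p = 0.456, 0.417 and 0.543). Of 27 tight junction genes 18 were higher on both arrays and 1 lower (median 0.22), led by the scaffold genes *Patj* with 0.89 and 0.19 and *Magi3* with 0.74 and 0.25 (limma adjusted p = 0.397 and 0.473). Of 10 gap junction genes 3 (30.0%) were higher on both arrays and 1 lower (median 0.03). That share lay near the 28.6% of all genes tested. The connexin gene *Gjb2* had 0.15 and 0.87 (limma adjusted p = 0.451).

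Transcription factors and splicing factors that promote epithelial junctions were higher on both arrays for 9 of 11 genes (median log2 ratio 0.31). This held for 28.6% of all genes tested, and none of the 11 was called by limma. *Klf4* was lower on both arrays (-0.59 and -0.20, limma adjusted p = 0.62), the only gene of this list to be so. *Grhl2*, a grainyhead factor known to act on *Cdh1*, had intensities of 3763 and 6745 on replicate 1 and 1117 and 1552 on replicate 2. Its log2 ratios were 0.84 and 0.47 (limma adjusted p = 0.196), and those of *Trp63*, the basal cell factor p63, were 0.68 and 0.25 (limma adjusted p = 0.52).

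The repressors of *Cdh1* lay on both sides of 0, with 3 of 6 higher and 3 lower on both arrays. *Snai1* fell from 7376 to 3911 on replicate 1 and from 1336 to 752 on replicate 2 (log2 ratios -0.92 and -0.83, limma adjusted p = 0.0321), whereas *Snai2* had 0.37 and 0.23 and *Zeb1* 0.31 and 0.09 (limma adjusted p = 0.713 and 0.821). *Twist1* and *Twist2* had -0.58 and -0.30, and -0.53 and -0.40 (limma adjusted p = 0.556 and 0.514). Of a list of 6 further cadherins, not all of them confined to mesenchyme or endothelium, 3 were higher on both arrays. Over all genes tested this held for 28.6%. *Cdh6* had the largest mean ratio of that list, with 0.83 and 0.68 (limma adjusted p = 0.0955).

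**Figure D4:**
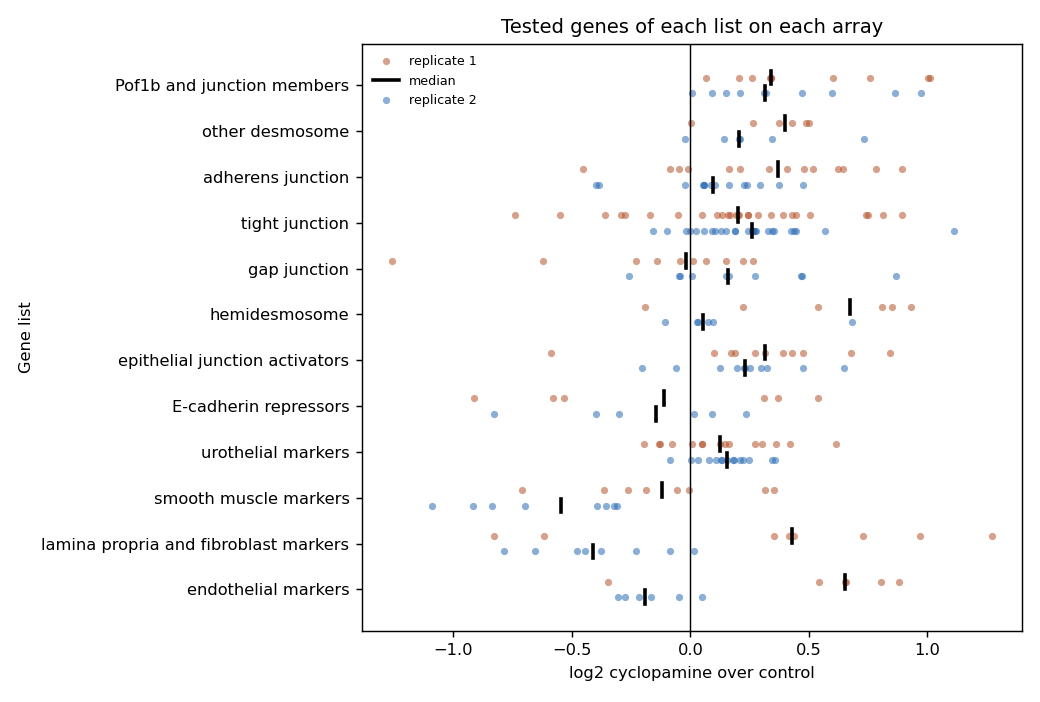
Log2 ratio of cyclopamine over control for each tested gene of a list (points) on replicate 1 (brown) and replicate 2 (blue), with black bars at the list medians. The medians of the 10 genes lie at 0.341 and 0.314, the bars of the urothelial markers nearer to 0, and those of the lamina propria and endothelial markers on opposite sides of 0.

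Cell type markers were read beside these values, since the members are genes of epithelial cells. All 15 urothelial markers were measured in all 4 channels. On both arrays 10 were higher and none lower, against 5557 higher and 5616 lower of all 19405 genes tested. The median log2 ratio of these markers was 0.13 on replicate 1 and 0.16 on replicate 2. Their summed intensity was 598100 in control and 670700 in cyclopamine on replicate 1, and 150700 and 167300 on replicate 2, a log2 ratio of 0.17 and 0.15. The summed intensity of the 10 members, which the brightest probes dominate, had log2 ratios of 0.48 and 0.20.

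Of 8 smooth muscle markers 6 were lower on both arrays and none higher, against 5616 lower and 5557 higher of all 19405 genes tested. *Actg2* fell (-0.71 and -1.09, limma adjusted p = 0.0255). The smooth muscle markers had medians of -0.12 on replicate 1 and -0.55 on replicate 2. Their summed intensity went from 359300 to 330200 and from 93610 to 57870. The 8 markers of lamina propria and fibroblasts had medians of 0.43 and -0.41, with sums from 343000 to 506600 and from 150400 to 121500. These medians hide *Thy1* (-0.83 and -0.79) and *Aldh1a2* (-0.62 and -0.65), the 2 markers of that list lower on both arrays (limma adjusted p = 0.0586 and 0.22). The 6 endothelial markers had medians of 0.65 and -0.19, and the 6 leukocyte markers 0.17 and -0.07. Of 8 nephron and collecting duct markers, 2 (*Lrp2* and *Aqp2*) passed the filter, with summed intensities of at most 195. The 6 epidermis markers measured had medians of -0.54 and 0.01. The part of a changed mix of cells in the ratios of the members was not tested.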

How the data were processed

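Spot intensity values were deposited by the authors as output of Agilent Feature Extraction (the labels give version 10.7.3.1 and the scanner files version 12.2.0.7). Background subtraction, detrending and dye balancing within each array had been applied to the processed intensity per the file headers. A log10 ratio of red over green was deposited too and was not used for the values given here. The authors' deposited series table holds a score per probe, a signed fold change rounded to 1 decimal, used as an alternative. Flags per spot came from the same software. Outlier spots (2.89% and 3.15%) were left out, no spot was saturated, and spots were averaged per probe on the log2 scale. Ratios were turned to cyclopamine over control, and the brightest probe stood for a gene. Testing required a share of 0.5 or more of spots flagged as well above background on both arrays in either treatment (25991 probes). The R package limma (3.58.1, under R 4.3.3, with lmFit and eBayes, no intercept, Benjamini-Hochberg adjustment, limit 0.05) was fitted over all of them after a check on simulated data. In that check 137 of 200 planted changes were recovered (68.5%), with 7 false calls. Each planted change was larger than the mean ratio of any of the 63 tested junction genes. The check therefore says nothing about changes of their size. Symbols were updated through RefSeq accessions for genes outside the group (28328 probes matched). The number of arrays limits the precision, and p-values rest mostly on the variance prior shared by all probes and little on the spread of a gene between the 2 pairs of pools. The members and lists were chosen with earlier results of these data known. Named genes were all members, the 10 junction genes with the largest mean ratio of the same sign on both arrays, the junction genes called by limma, the 5 nearest to *Pof1b*, *Snai1* and the SHH targets. *Perp*, *Grhl2*, *Trp63*, *Klf4*, *Cdh6*, *Actg2*, *Cldn3*, *Thy1*, *Aldh1a2*, the other repressors and the genes under the filter were named after their values were seen. Alternatives covered background correction, the deposited table, filters, probe choice, gene length, the variance prior and single arrays.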

Additional observations from a re-analysis of the deposited data

Results flagged for a closer look

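Some values ran in opposite directions in the female pools (replicate 1) and the male pools (replicate 2), and with a single array per sex the difference was not tested and sex cannot be told apart from dye and array. *Cldn3*, a claudin of tight junctions, had log2 ratios of -0.74 and 1.11, from intensities of 105 in control and 63 in cyclopamine on replicate 1, and of 26.2 and 56.7 on replicate 2. It was the only one of the members and listed junction genes measured in all 4 channels to differ by at least 1.5-fold in opposite directions. Among marker lists whose medians lay over 0.1 from 0 in opposite directions, the lamina propria and fibroblast markers had medians of 0.43 and -0.41, and the endothelial markers of 0.65 and -0.19. Within the former list *Thy1* (-0.83 and -0.79) and *Aldh1a2* (-0.62 and -0.65) were lower on both arrays. At its brightest probe no member of the junction group differed in direction between the arrays. The dim second probe of *Dsc3* did (-0.12 and 0.94), as did a *Dsg2* probe not above background. With the gene length trend removed *Pkp1* did too (-0.07 and 0.45).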

How the results depend on the processing

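The median log2 ratio of the 10 members was 0.355. It was 0.285 and 0.305 with normexp offsets of 50 and 10, 0.261 from the deposited series table, 0.377 with the mean over probes, 0.277 with the gene length trend removed, and between 0.314 and 0.341 on single arrays. It was 0.285 without *Pof1b* and, separately, 0.285 without *Dsc3*, 2 alternatives chosen after seeing the data. All 10 members were higher on both arrays except with the series table (8), where a ratio rounded to no change counts as not higher, and with the gene length trend removed (9). Of 70 alternative values of single members, 62 moved by less than the SD between arrays, 8 by more, and none reversed. Part of the 62 could not move. Dropping the filter on dim probes leaves these ratios as they are, and the mean over probes leaves members with 1 probe unchanged. Keeping outlier spots changed only the mean of *Pkp3*, from 0.105 to 0.106. The SD is also a wide yardstick for *Dsg2* and *Dsp*, whose arrays differed most, so the count shows little. The mean of *Dsc3* ranged from 0.18 to 0.73. No other junction gene was called by limma under any alternative run except with no filter on dim probes, where 1 (*Dsc1*, near background) was called. The array pairs the channels as a replicate block, and 0 were called in a fit of the 4 channels without that pairing (no replicate block), in which 0 also had an unadjusted p under 0.05. A single array allows no test, so calls without a replicate could not be made. Dim probes such as *Dsc3* limit what can be said.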
